A study of Mus musculus with 14 samples.

Results

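The genes described here encode the mitochondrial respiratory chain and the ATP synthase, measured by RNA sequencing in the lungs of mice with and without *Mcemp1*. They are 104 of the 24270 genes in the table and were taken by a rule on annotation and gene name that uses no measured value. A gene was taken when it was annotated as protein coding and its symbol began as do those of the subunits of complexes I to V (mt-Nd, mt-Co, mt-Cytb, mt-Atp, Nduf, Sdh, Uqcr, the Cox genes of complex IV and Atp5). Of the 104 genes, 13 lie in the mitochondrial genome (mt-encoded) and 91 in the nucleus (nuclear-encoded), and 8 of the latter are assembly factors of complex I rather than subunits. The name pattern matched 121 genes. Left out were 14 not annotated as protein coding and the 3 muscle forms *Cox6a2*, *Cox7a1* and *Cox8b*. *Cox5b-ps*, a pseudogene by its symbol, is annotated as protein coding and was kept. The muscle forms were read separately, as a measure of heart muscle in a sample. *Ndufb11b* was at most 0.217 normalized counts in any library and did not pass the filter on low values, so 103 genes were tested, 13 mt-encoded and 90 nuclear-encoded.

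C57BL/6 mice of 6 to 8 weeks, either *Mcemp1*+/+ (called WT here, for wild type) or *Mcemp1*-/- (called KO, for knockout), were given saline or ovalbumin (OVA), the egg protein used to model allergic asthma. OVA was injected into the peritoneum on days 1, 4 and 7, and the nasal challenges began 5 days after the last injection and were repeated each week for 8 weeks. Control mice received saline, and lungs were taken after lavage. The knockout was made with CRISPR-Cas9 aimed at exon 1 in C57BL/6 zygotes, so all cells of the mouse carry it, and the sources used here name neither the C57BL/6 substrain nor whether the wild-type mice were littermates. There were 3 libraries each of saline WT and saline KO, and 4 each of OVA WT and OVA KO. The value columns of the saline groups are headed CO. They were read as saline because the control mice received saline, and no column header says so. Each library is 1 lung sample, and p-values measure the spread between these samples.

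Complex I (NADH dehydrogenase) and complex II (succinate dehydrogenase) pass electrons to ubiquinone, complex III passes them to cytochrome c, and complex IV (cytochrome c oxidase) passes them to oxygen. Complexes I, III and IV pump protons, and complex V, the ATP synthase, uses the gradient to make ATP. Complex II is made wholly from nuclear genes, and the other complexes combine nuclear-encoded subunits with a small set of mt-encoded ones. The mitochondrial genome is transcribed from both strands as long precursors that are cut into separate messages, and these receive short poly(A) tails. In the mouse lung, type 2 alveolar cells, ciliated cells and muscle are among the cells known to be rich in mitochondria.

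The mt-encoded messages are shown at the ends that their reading depends on, because the libraries were made from polyadenylated RNA. In the GENCODE M21 transcripts, 3 of the 13 coding sequences stop within a codon and rely on the poly(A) tail to complete the stop codon, and 10 encode a whole one. The last 30 bases of those 3 are given here 5′ to 3′ on GRCm38, with the incomplete stop codon in capitals.
mt-Co3 (complex IV), chrM:9361-9390, plus strand: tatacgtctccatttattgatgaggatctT
mt-Nd4 (complex I), chrM:11515-11544, plus strand: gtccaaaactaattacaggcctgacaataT
mt-Cytb (complex III), chrM:15259-15288, plus strand: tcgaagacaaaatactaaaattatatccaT
A start codon other than ATG was found in 4 of the 13. Those of mt-Nd1, the gene with the largest OVA response in wild type, and mt-Nd3, the gene whose level relative to the others differed most between genotypes, are shown in capitals in the first 30 bases.
mt-Nd1, chrM:2751-2780, plus strand: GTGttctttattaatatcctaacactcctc
mt-Nd3, chrM:9459-9488, plus strand: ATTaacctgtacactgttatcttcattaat
Several mt-encoded genes overlap. mt-Atp8 (chrM:7766-7969) shares its end with the start of mt-Atp6 (chrM:7927-8607), which shares its last base with the start of mt-Co3 (chrM:8607-9390), mt-Nd4l (chrM:9877-10173) with mt-Nd4 (chrM:10167-11544), and mt-Nd5 (chrM:11742-13565) with mt-Nd6 (chrM:13552-14070), which lies on the minus strand. Whether reads were counted by strand is not stated, so reads of mt-Nd6 and those of RNA from the opposite strand cannot be told apart.

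Taking the lowest value of each column as 1 read, the depth was between 47300000 and 67100000 reads per library, and the 4 OVA WT libraries had 47300000 to 49400000. *Mcemp1* had a mean of 10.6 normalized counts in saline WT (lowest 9.84, highest 12) and 4.12 in saline KO (lowest 3.5, highest 4.98). After OVA it had a mean of 14.8 in WT and 4.26 in KO, and its highest KO value (4.98) was below its lowest WT value (9.84). Reads of the gene remained in every KO library, and which exons they cover is not given. The lung label was checked on 7 markers of type 2 alveolar cells, whose summed level was between 11584 and 20770 normalized counts in every library.

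mt-encoded messages took up a large share of each library, and this share was higher after OVA in wild type. In saline WT they made up 12.8%, 13.2% and 16.1% of the column total, and in OVA WT 23.6%, 20.8%, 21.1% and 24.7%, with no overlap. In saline KO the shares were 17.4%, 11.4% and 15.1%, and in OVA KO 21.2%, 15.7%, 20.4% and 13.6%. OVA KO libraries 1 and 3 were in the range of OVA WT or just under it, whereas OVA KO libraries 2 and 4 were within the range of the saline KO libraries. The nuclear-encoded genes together made up 0.538%, 0.505% and 0.554% of the column total in saline WT. In OVA WT their share was lower without overlap, at 0.435%, 0.467%, 0.479% and 0.437%. In saline KO it was 0.468%, 0.484% and 0.484%, and in OVA KO 0.435%, 0.485%, 0.514% and 0.432%. Per kilobase of exon, the median mt-encoded gene was at 9578 normalized counts in saline WT and 17748 in OVA WT, and the median nuclear-encoded gene at 25.9 and 28.

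**Figure D1:**
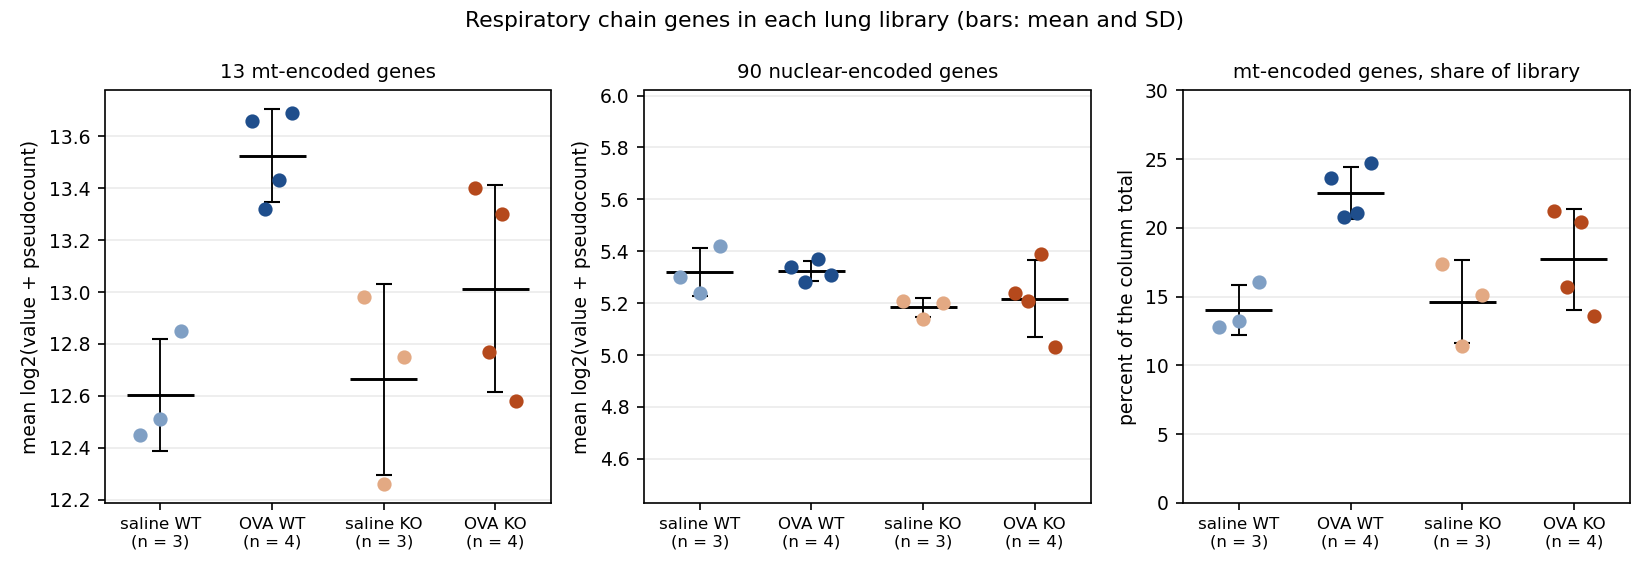
The first and second panels plot, for each lung library, the mean log2 normalized count of the 13 mt-encoded and of the 90 nuclear-encoded genes on axes of equal length, and the third plots the percent of the column total taken by the mt-encoded genes. Points are libraries, horizontal lines are group means and bars are SD; the OVA WT libraries (13.32 to 13.69) sit above the saline WT libraries (12.45 to 12.85) in the first panel, while the nuclear-encoded means stay between 5.03 and 5.42.

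mt-Co1, the catalytic core of complex IV and the most abundant of the 13 per kilobase in every group, shows the pattern. Its normalized counts were 32813, 35856 and 45532 in saline WT and 73287, 60365, 63311 and 77924 in OVA WT. In saline KO they were 47438, 29542 and 40019, and in OVA KO 63756, 42104, 57809 and 37585. The wild-type groups did not overlap, whereas OVA KO libraries 2 and 4 lay within the range of the saline KO libraries. The change in wild type was 0.86 on the log2 scale (SE 0.24, limma adjusted p = 0.032).

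In wild type, 12 of the 13 mt-encoded genes rose after OVA (limma, Benjamini-Hochberg adjusted p from 0.0096 to 0.032 for the 12), where 4.36% of all 22828 genes tested rose and 7.45% fell. The median log2 change of the 13 was 0.93, with a range of 0.69 to 1.12, against a median of 0.01 over all genes. The exception by the test was mt-Atp8, a short subunit of the ATP synthase, which was 0.69 higher (SE 0.23, adjusted p = 0.069). All 13 were higher in every OVA WT library than in any saline WT library, a separation in that direction seen for 10.3% of all genes.

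Among the 7 mt-encoded subunits of complex I, which form its proton-pumping membrane arm, mt-Nd1 rose by 1.12 (SE 0.24, adjusted p = 0.01) and mt-Nd3 by 1.09 (SE 0.23, adjusted p = 0.0096). The smallest rise of the 7 was that of mt-Nd4l, at 0.73 (SE 0.20, adjusted p = 0.029). In complex III, mt-Cytb, which carries the quinone sites, rose by 0.93 (SE 0.24, adjusted p = 0.022). In complex IV, mt-Co2, the subunit that receives electrons from cytochrome c, rose by 1.08 and mt-Co3 by 0.97. In complex V, mt-Atp6, part of the proton channel, rose by 0.97 (SE 0.23, adjusted p = 0.015).

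These calls depended on single libraries and on a covariate. Without saline WT 2, 0 of the 13 passed the threshold, without saline WT 1, 2 passed, without OVA WT 1, 4 passed and without OVA WT 4, 7 passed. The median change stayed between 0.86 and 0.90 without either of those saline libraries, and each of the 13 kept its sign under every alternative run. With the mean log2 level of heart muscle markers as a covariate, 0 of the 13 passed (median 0.73), and relative to the nuclear-encoded genes also 0 (median 0.64). That level was 5.63 to 6.26 in the saline WT libraries and 1.95 to 3.57 in OVA WT, so the covariate itself separates these groups. The fit therefore cannot separate OVA from heart muscle level, and few genes of the whole table passed in it.

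**Figure D2:**
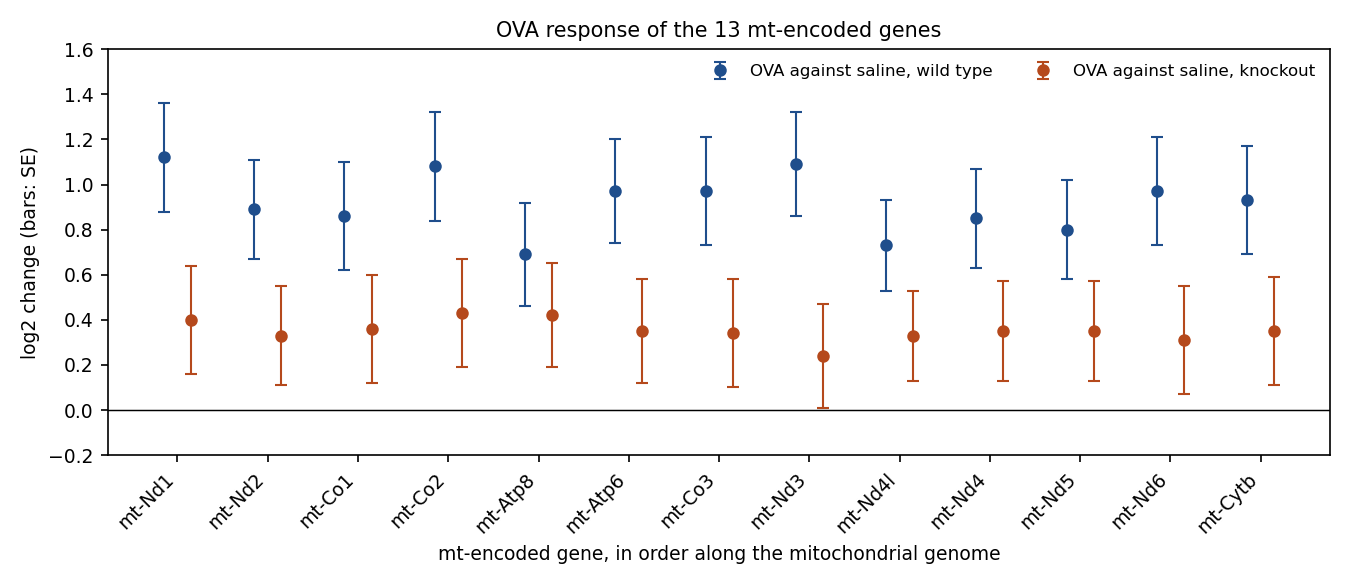
The log2 change of each mt-encoded gene from saline to OVA is plotted with its SE for wild type and for knockout, with genes in their order along the mitochondrial genome. The wild-type changes lie between 0.69 and 1.12 and the knockout changes between 0.24 and 0.43, with no trend along the genome drawn or tested.

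The mt-encoded genes were then compared with the nuclear-encoded ones, by scaling every library to the same mean log2 level of the 90 nuclear-encoded genes. These include the genes of complex II, which has no mt-encoded subunit, and the assembly factors of complex I. On that scale all 13 mt-encoded genes rose in wild type (adjusted p from 0.0032 to 0.041, median log2 change 0.93, a median fold of 1.9), where 3.05% of all genes rose and 5.41% fell. Without saline WT 2, 7 of the 13 passed on this scale. The mean log2 level of the mt-encoded genes minus that of the nuclear-encoded genes was 7.15, 7.27 and 7.43 in saline WT and 8.33, 8.04, 8.06 and 8.37 in OVA WT. It was 7.76, 7.12 and 7.55 in saline KO and 8.16, 7.56, 7.92 and 7.55 in OVA KO. The OVA and saline groups were thus apart in wild type, with means that differed by 0.91, and overlapped in knockout, with means that differed by 0.32.

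In knockout mice none of the 13 passed the test after OVA (limma, adjusted p from 0.54 to 0.74, 0 at an unadjusted p under 0.05), where 0.21% of all genes rose and 0.166% fell. All 13 had positive values, from 0.24 for mt-Nd3 to 0.43 for mt-Co2, with a median of 0.35, and 0 of 13 had groups that did not overlap (5.75% of all genes were apart and higher, 7.07% apart and lower). Relative to the nuclear-encoded genes the median was 0.32, again with 0 called, where 0.171% of all genes rose. The mt-encoded genes varied more between knockout libraries than between wild-type ones. Their median SD on the log2 scale was 0.21 in saline WT, 0.18 in OVA WT, 0.37 in saline KO and 0.41 in OVA KO, while over all genes tested it was between 0.12 and 0.18.

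Whether the genotypes responded differently to OVA was tested as an interaction, and 0 of 13 mt-encoded and 0 of 90 nuclear-encoded genes passed (limma, 1 and 5 at an unadjusted p under 0.05), where 0.00438% of all genes passed. For the mt-encoded genes the response in knockout minus that in wild type was negative for all 13, with a median of -0.59 and unadjusted p from 0.023 for mt-Nd3 to 0.41 for mt-Atp8 (adjusted p from 0.66 to 0.87). Relative to the nuclear-encoded genes all 13 were again negative, with a median of -0.61. On that scale 0 of 13 passed (limma, unadjusted p from 0.0068 for mt-Nd3 to 0.29 for mt-Atp8, adjusted p from 0.75 to 0.99), where 0% of all genes passed. A smaller response in knockout is therefore not established by these tests.

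After OVA, 0 of the 13 mt-encoded genes differed between knockout and wild type on the deposited scale (limma, 8 at an unadjusted p under 0.05), where 0.206% of all genes were lower in knockout and 0.39% differed in either direction. Only mt-Nd3 had groups that did not overlap, and 4.04% of all genes were apart and lower and 3.09% apart and higher. The median was -0.53 and the values ran from -1.02 for mt-Nd3 (SE 0.22, adjusted p = 0.063) to -0.22 for mt-Atp8. Relative to the nuclear-encoded genes, mt-Nd3 was lower in knockout by -0.91 on the log2 scale (adjusted p = 0.046), where 0.127% of all genes were lower, and the other 12 did not pass. This call was lost under 14 of 27 alternatives (adjusted p from 0.0011 to 0.28), while with library weights all 13 were called lower on this scale (median -0.62). After saline, the 13 differed between genotypes by -0.17 to 0.15 and none passed (adjusted p = 1 for each, 0 at an unadjusted p under 0.05), where 0.0832% of all genes differed in either direction (0.0745% lower, 0.00876% higher). Relative to the nuclear-encoded genes none passed either (limma, adjusted p from 0.74 to 0.95, 0 at an unadjusted p under 0.05), where 0.0438% of all genes were lower and 0.0131% higher.

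mt-Nd3 encodes a small membrane subunit of complex I that takes part in the switch between its active and resting forms. Its normalized counts were 697, 694 and 985 in saline WT, 1914, 1485, 1547 and 1738 in OVA WT, 884, 495 and 766 in saline KO and 1103, 728, 973 and 584 in OVA KO. Every OVA KO library was below every OVA WT library, and the saline groups overlapped. The gene was also the least abundant of the 13 per kilobase in all 4 groups, at 2276 in saline WT and 4802 in OVA WT. To remove what the mt-encoded genes share, its log2 level was taken relative to the mean of the other 12. This relative level was -3.26, -3.33 and -3.15 in saline WT, -2.99, -3.01, -3.07 and -3.17 in OVA WT, -3.45, -3.59 and -3.43 in saline KO and -3.56, -3.54, -3.66 and -3.67 in OVA KO. All 7 KO libraries were below all 7 WT libraries. The difference between genotypes was -0.55 after OVA (exact 2-sided permutation test, p = 0.029, the smallest that 4 against 4 allows) and -0.25 after saline (p = 0.1, the smallest that 3 against 3 allows by an exact permutation test). This was 1 of 13 genes compared in this way, and the p-values are not adjusted.

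After OVA, 3 other genes reached the same smallest p of 0.029 by the exact permutation test, all higher in knockout relative to the other mt-encoded genes. They were mt-Atp8 (0.31), mt-Nd4l (0.22) and mt-Nd5 (0.15). In saline their differences between genotypes were -0.00, 0.03 and 0.01. Within wild type, 6 of the 13 genes reached the smallest p of 0.057 that 3 against 4 allows, which is above the threshold of 0.05, so no difference in size along the genome could be called. The values relative to the other mt-encoded genes were 0.21 for mt-Nd1, 0.18 for mt-Co2, -0.24 for mt-Atp8, -0.20 for mt-Nd4l, -0.13 for mt-Nd5 and -0.07 for mt-Nd4 (exact permutation test, each p = 0.057). In knockout none of the 13 came below 0.11.

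*Nnt*, a proton-pumping transhydrogenase of the inner mitochondrial membrane, also had no overlap between the genotypes. *Nnt* is disrupted by a deletion in the C57BL/6J substrain and intact in C57BL/6N, and these substrains are also known to differ in their mitochondrial DNA. The table lists it under 2 identifiers. For ENSMUSG00000025453 the normalized counts were 11, 11.4 and 11 in saline WT, 14.6, 11.3, 12.9 and 11.7 in OVA WT, 23.9, 22.8 and 22 in saline KO and 23.5, 21.1, 25.7 and 20.1 in OVA KO. *Nnt* was higher in knockout by 1.01 after saline (SE 0.11, adjusted p = 0.00065) and by 0.82 after OVA (SE 0.09, adjusted p = 0.00091). ENSMUSG00000116207 was also higher in knockout, by 1.44 after OVA (adjusted p = 0.00019), and was 0.94 higher after saline (adjusted p = 0.059). The part of substrain, nuclear or mitochondrial, in the mt-Nd3 difference was not tested.

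**Figure D3:**
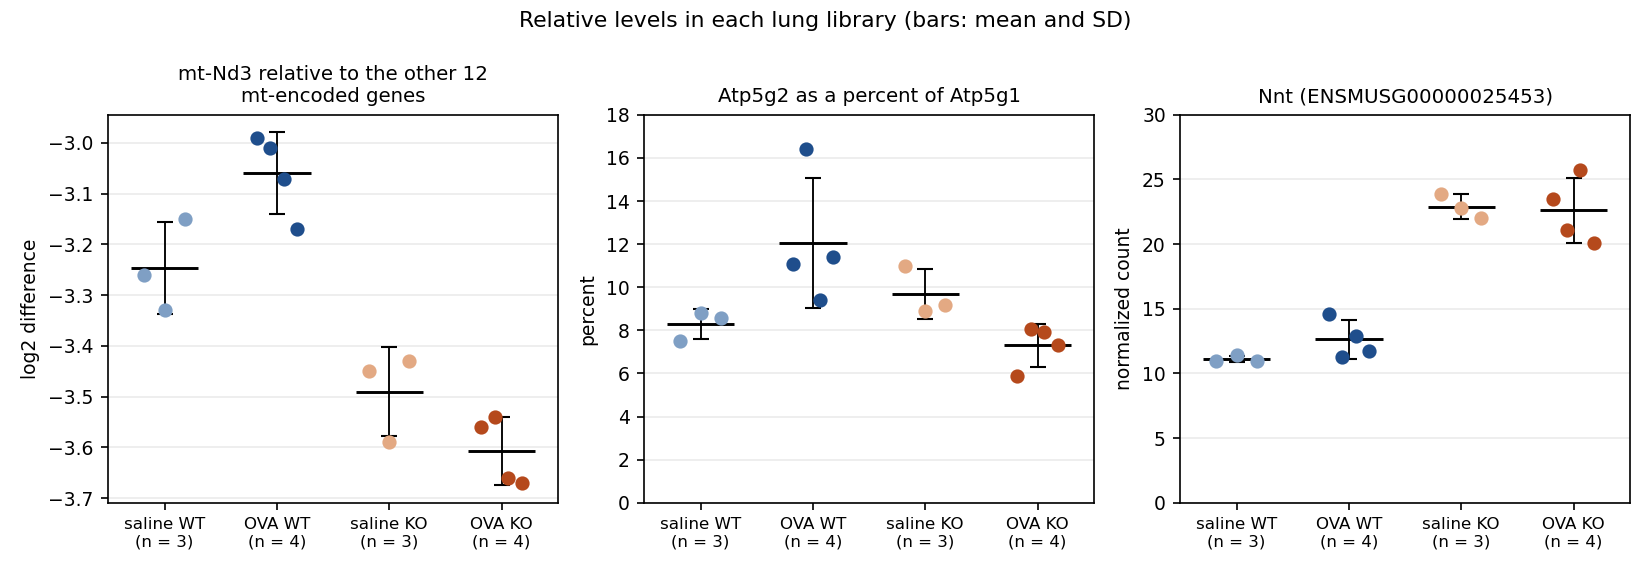
For each library the panels plot the log2 level of mt-Nd3 relative to the other 12 mt-encoded genes, *Atp5g2* as a percent of *Atp5g1*, and the normalized count of *Nnt*; lines are group means and bars SD. All KO libraries (-3.43 to -3.67) lie below all WT libraries (-2.99 to -3.33) in the first panel and above them in the third, and *Atp5g2* is highest in OVA WT and lowest in OVA KO.

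The 90 nuclear-encoded genes showed no common shift with OVA. In wild type 0 rose and 3 fell, where 11.8% of all genes passed in either direction. Their median log2 change was -0.00, with a range of -0.46 to 0.40, and 44 had positive and 46 negative values. In knockout 0 passed (limma, 5 at an unadjusted p under 0.05), where 0.377% of all genes passed in either direction, and the median was 0.04. With columns scaled to equal totals, which moves the wild-type median of all genes to -0.17, 31 of the 90 fell and 0 rose.

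*Ndufaf7*, an assembly factor of complex I, fell by 0.46 on the log2 scale (SE 0.09, adjusted p = 0.0059). Its normalized counts were 20.4, 20.2 and 22.9 in saline WT and 14.4, 15.2, 16.1 and 15.1 in OVA WT, with no overlap. In knockout they were 24, 18.8 and 21.9 after saline and 15.6, 18.3, 18 and 17.6 after OVA, also without overlap, a value of -0.30 that did not pass (SE 0.09, adjusted p = 0.21).

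*Ndufv1*, the complex I subunit that binds NADH and flavin, fell by 0.27 (SE 0.06, adjusted p = 0.018). Its normalized counts were 51.2, 50.5 and 50.3 in saline WT and 40.8, 42.5, 44.1 and 40.7 in OVA WT. In saline KO they were 42, 46.2 and 44.7, all below the saline WT libraries, and in OVA KO they were 41.4, 44.2, 47.1 and 41.3. The saline difference between genotypes was -0.19 and did not pass (SE 0.07, adjusted p = 1).

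*Atp5d*, the delta subunit of the rotating stalk of the ATP synthase, fell by 0.20 (SE 0.06, adjusted p = 0.034). Its normalized counts were 53.1, 51.2 and 49.4 in saline WT and 44.5, 44.2, 46 and 42.9 in OVA WT, and in knockout 46.4, 48.9 and 46.1 after saline and 42.5, 44.7, 43.2 and 41.9 after OVA. The OVA and saline groups were apart in both genotypes, and the knockout value of -0.13 did not pass (adjusted p = 0.42). *Atp5d* lost its call under 10 of 27 alternatives, *Ndufv1* under 3 and *Ndufaf7* under 1.

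**Figure D4:**
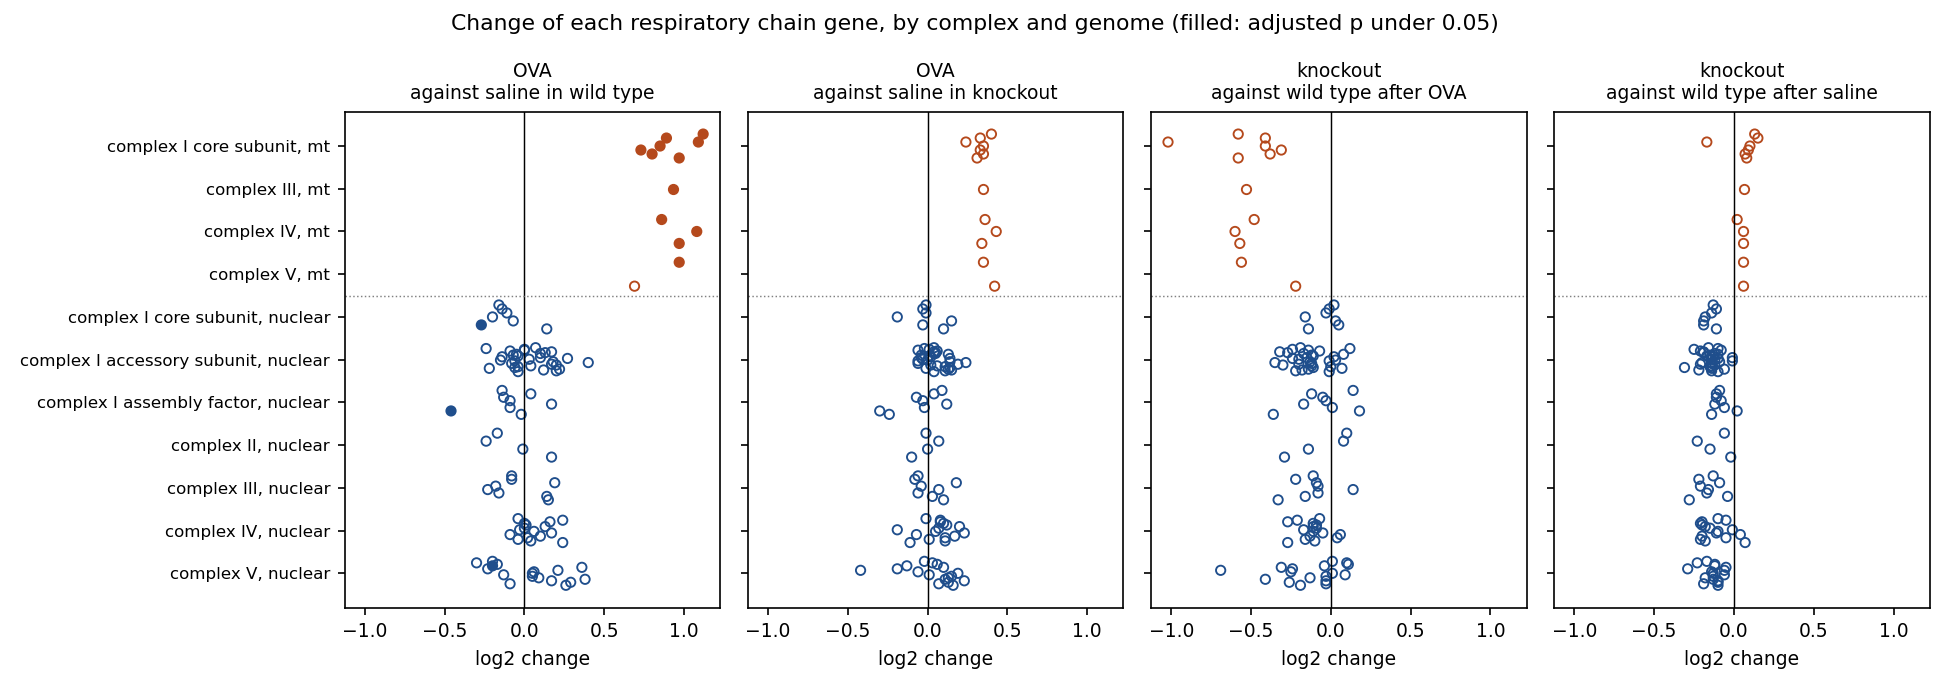
Each circle is 1 gene and gives its log2 change in the comparison named above the panel, with genes grouped by complex and by the genome that encodes them, mt-encoded above the dotted line. Filled circles have an adjusted p under 0.05: 12 mt-encoded genes to the right of 0 and *Ndufaf7*, *Ndufv1* and *Atp5d* to the left of 0 in the wild-type OVA panel, and none in the other panels.

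By complex, the counts for mt-encoded and nuclear-encoded genes of the same enzyme were as follows in wild type. Over all genes 4.36% rose and 7.45% fell in this comparison. In the complex I core, 7 of 7 mt-encoded genes rose (median 0.89), whereas of the 7 nuclear-encoded core genes 0 rose and *Ndufv1* fell (median -0.14). Of the 30 accessory subunits of complex I that were tested, 0 passed (median 0.02), and of the 8 assembly factors *Ndufaf7* fell (median -0.09). For complex II, all nuclear, 0 of 4 passed, with a median of -0.09. In complex III the mt-encoded gene rose and 0 of 8 nuclear-encoded genes passed (median -0.08). In complex IV 3 of 3 mt-encoded genes rose and 0 of 16 nuclear-encoded genes passed (median 0.03). In complex V 1 of 2 mt-encoded genes rose, and of 17 nuclear-encoded genes *Atp5d* fell (median 0.05).

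Among the nuclear-encoded genes, 19 were lower in every OVA WT library than in any saline WT library and 7 were higher, against 12.6% and 10.3% of all genes. The 19 hold the 3 genes that passed the test, *Ndufaf7*, *Ndufv1* and *Atp5d*, and 16 that did not. Among these 16 were *Sdha* (-0.17, adjusted p = 0.15) and *Sdhb* (-0.24, adjusted p = 0.075), the flavin and iron-sulfur subunits of complex II, and *Atp5b* (-0.30, adjusted p = 0.086), the catalytic subunit of the ATP synthase. They also held the membrane subunit *Atp5g1* (-0.23). None of the 7 passed, and the nearest were *Atp5e* (0.36, adjusted p = 0.053), a subunit of the central stalk, and *Atp5l* (0.38, adjusted p = 0.12), a membrane subunit. Across the 90 genes the change in wild type and exon length had a Spearman correlation of -0.28, compared with -0.05 over 15998 protein-coding genes, and these points share the same 7 libraries.

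In saline mice the nuclear-encoded genes had slightly lower values in knockout, without any gene passing the test. The genes share the same libraries, so counts of genes are not counts of separate samples. Their mean level was not tested. 87 of the 90 had negative values, the median log2 difference was -0.13 and 30 were lower in every saline KO library than in any saline WT library, against 5.54% of all genes (0 were apart and higher, against 5.81%, limma, 0 called, 8 at an unadjusted p under 0.05). The mean log2 level of the 90 was 5.30, 5.24 and 5.42 in saline WT and 5.21, 5.14 and 5.20 in saline KO, so the groups were apart by a narrow margin, while all genes tested had a median of 0.01. After OVA 69 of 90 had negative values, with a median of -0.11 (limma, 0 called, 15 at an unadjusted p under 0.05), and the libraries overlapped in this mean level, at 5.28 to 5.37 in WT and 5.03 to 5.39 in KO.

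Several subunits have an alternative form from a second gene, and the ratio of the forms was compared for 9 such pairs. The c subunit of the ATP synthase, which forms the membrane rotor, is encoded by *Atp5g1*, *Atp5g2* and *Atp5g3*, which give the same mature protein. *Atp5g3* was the most abundant, at a mean of 121 ± 19.8 normalized counts in saline WT (SD, n = 3), *Atp5g1* was at 18.6 ± 2.74 and *Atp5g2* at 1.55 ± 0.306. *Atp5g2* was 7.5%, 8.8% and 8.55% of *Atp5g1* in saline WT, 11.1%, 16.4%, 9.39% and 11.4% in OVA WT, 11%, 8.9% and 9.17% in saline KO and 5.88%, 8.07%, 7.92% and 7.34% in OVA KO. With OVA the ratio was thus higher in every wild-type library and lower in every knockout library than in the matching saline group. In wild type *Atp5g2* itself overlapped (1.24 to 1.86 in saline, 1.54 to 2.61 after OVA), while *Atp5g1* had a lower mean after OVA (15.6). *Atp5g3* was also a larger percent of *Atp5g1* in every OVA WT library (743% to 864%) than in saline WT (600% to 689%). That difference had p = 0.057 by the exact permutation test, the smallest possible, and the KO groups overlapped. The ratio of *Atp5g2* to *Atp5g1* was lower in knockout than in wild type after OVA (exact permutation test, p = 0.029, the smallest possible). That p-value is not adjusted over the 9 ratios. After saline every knockout library was above every wild-type library, by a narrow margin, and 3 against 3 cannot pass the threshold (exact permutation test, p = 0.1, the smallest possible). The difference of the OVA responses was -0.93 on the log2 scale (exact permutation of the genotype labels within each treatment, 1400 relabellings, p = 0.0014). This test was run only for this ratio, flagged among the 9 because its groups lay apart in opposite directions. Its p-value therefore restates the pattern that picked the ratio. In the fit over all genes, *Atp5g2* itself was at -0.69 in knockout against wild type after OVA and did not pass (SE 0.15, adjusted p = 0.064). Its normalized counts were between 0.817 and 2.61, the lowest mean per kilobase of the 90 in each group.

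*Cox7a2l* was compared with its relative *Cox7a2*, a subunit of complex IV. *Cox7a2l* was 146% ± 13.9 of *Cox7a2* in saline WT (SD, n = 3) and 121% ± 5.66 in OVA WT (SD, n = 4), and 161% ± 6.74 and 132% ± 19.1 in the KO groups. The ratio was lower after OVA in every library of each genotype (exact permutation test, p = 0.057 in each, the smallest possible). The ratios of *Cox4i2* to *Cox4i1*, of *Cox6b2* to *Cox6b1* and of *Ndufa4l2* to *Ndufa4* overlapped between all groups compared, with means between 8.53% and 18.1%. *Cox4i2* and *Ndufa4l2* are the forms known from oxygen-poor conditions.

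Promoters were read from RefSeq on GRCm38.p6 (250 bases before and 50 after the start) for 74 of the 91 nuclear-encoded genes, which were matched by symbol. Motifs of factors known to control nuclear genes of mitochondria were searched on both strands. The NRF1 core CGCATGCG was present in 14.9% of the 74, compared with 2.77% of 17491 protein-coding genes. With any base at the N (CGCANGCG, which includes the former) it was present in 39.2% and 12.5%. The ETS motif CCGGAAG, bound by GABP, was present in 25.7% and 12.9%, and the YY1 motif AAGATGGCG in 10.8% and 2.14%. Of the 3 genes that fell, *Ndufv1* and *Ndufaf7* had none of these letters in their windows and *Atp5d* had CGCANGCG in 1 of its 2 windows. Because the ratio of *Atp5g2* to *Atp5g1* differed between groups, both promoters are shown, with the NRF1 motif in capitals and the minus strand read 5′ to 3′, and that of *Ndufv1*, as the core subunit that fell, is given for comparison.
Atp5g2, chr15:102670998-102671297, minus strand: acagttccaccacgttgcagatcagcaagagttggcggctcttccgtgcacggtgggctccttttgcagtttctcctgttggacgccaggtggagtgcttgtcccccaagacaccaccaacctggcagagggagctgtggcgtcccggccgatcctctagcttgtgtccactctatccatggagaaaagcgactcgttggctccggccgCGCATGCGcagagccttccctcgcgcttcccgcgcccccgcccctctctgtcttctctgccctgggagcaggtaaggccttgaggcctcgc
Atp5g1, chr11:96075582-96075881, minus strand: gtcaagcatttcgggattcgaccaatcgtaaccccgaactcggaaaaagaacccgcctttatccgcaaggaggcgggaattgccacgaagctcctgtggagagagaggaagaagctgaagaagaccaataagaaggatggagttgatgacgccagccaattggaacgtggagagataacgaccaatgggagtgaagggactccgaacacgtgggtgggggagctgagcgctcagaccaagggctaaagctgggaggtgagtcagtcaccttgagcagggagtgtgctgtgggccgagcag
Ndufv1, chr19:4012706-4013005, minus strand: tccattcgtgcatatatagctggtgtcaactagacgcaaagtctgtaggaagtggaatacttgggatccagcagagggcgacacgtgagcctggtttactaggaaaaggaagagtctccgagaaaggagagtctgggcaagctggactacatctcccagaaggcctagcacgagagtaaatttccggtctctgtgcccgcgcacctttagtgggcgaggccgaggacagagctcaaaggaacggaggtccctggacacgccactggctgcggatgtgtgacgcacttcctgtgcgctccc
The *Atp5g2* window holds 1 NRF1 motif, and the *Atp5g1* and *Ndufv1* windows hold none of the motifs searched.

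Other genes that serve the respiratory chain were read from lists of known members. Over all genes 4.36% rose and 7.45% fell after OVA in wild type. Of 20 genes of mitochondrial DNA transcription and replication, in wild type 0 rose after OVA and *Mterf4*, which acts in assembly of the mitochondrial ribosome, fell by 0.50 (SE 0.08, adjusted p = 0.0023). *Tfam*, which packages mitochondrial DNA and starts its transcription, was at 0.12 (SE 0.09, adjusted p = 0.42). Of 21 genes that process or stabilise mitochondrial RNA, 0 passed (median -0.02), the nearest being *Slirp*, a partner of LRPPRC in keeping mitochondrial messages stable (0.28, adjusted p = 0.071). Of 78 mitochondrial ribosomal proteins, 0 rose and *Mrpl39* fell by 0.49 (adjusted p = 0.0086), with a median of 0.04.

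Of 14 regulators of mitochondrial biogenesis, 1 rose and 2 fell in wild type, where 4.36% of all genes rose and 7.45% fell. *Ppargc1a*, the coactivator PGC-1alpha, fell by 0.94 (SE 0.19, adjusted p = 0.0078), from 8.09 ± 0.879 (SD, n = 3) to 4.03 ± 0.891 normalized counts (SD, n = 4). *Esrrg*, a nuclear receptor that works with it, fell by 1.03 (SE 0.28, adjusted p = 0.033), and *Ppargc1b*, a related coactivator, rose by 0.83 (SE 0.23, adjusted p = 0.032). The list had a median of -0.01.

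Of 19 genes of the tricarboxylic acid cycle and the steps that supply it, 0 rose and 6 fell after OVA in wild type, with a median of -0.22, and the other 13 did not pass (over all genes 7.45% fell). *Idh2*, the mitochondrial isocitrate dehydrogenase that makes NADPH, fell by 0.75 (SE 0.10, adjusted p = 0.00059), and *Pcx*, pyruvate carboxylase, by 1.06 (SE 0.19, adjusted p = 0.003). Over all genes 4.36% rose and 7.45% fell in this comparison. Of 26 electron carriers, ubiquinone enzymes and carriers of ADP, 0 rose and 4 fell, with a median of -0.16. They were *Slc25a4*, the ADP/ATP carrier of heart and muscle (-0.52, adjusted p = 0.0038), and the ubiquinone genes *Coq8a* (-1.04, adjusted p = 0.0042), *Coq10a* (-0.34, adjusted p = 0.0096) and *Coq9* (-0.53, adjusted p = 0.015). Glycolysis was mixed, with 2 of 19 higher and 2 lower, against 4.36% and 7.45% of all genes. The muscle form of phosphofructokinase, *Pfkm*, fell by 0.73 (adjusted p = 0.00063), and the myeloid hexokinase *Hk3* rose by 1.04 (adjusted p = 0.0035).

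In knockout, 0 members of the lists of the tricarboxylic acid cycle, electron carriers, biogenesis and mitochondrial ribosome passed after OVA (limma, 3, 2, 1 and 0 members at an unadjusted p under 0.05). Over all genes 0.377% passed in either direction in that comparison. Between genotypes after OVA, *Atf5*, a factor of the mitochondrial stress response, was lower in knockout by -0.52 on the log2 scale (SE 0.10, adjusted p = 0.045), with 155 ± 21.4 normalized counts in OVA WT and 107 ± 10.7 in OVA KO (SD, n = 4). It was 1 of 13 genes of that list. *Dmac1*, an assembly factor of the complex I membrane arm, rose by 0.46 with OVA in wild type (SE 0.12, adjusted p = 0.021) and was at -0.54 in knockout against wild type after OVA (SE 0.11, adjusted p = 0.052).

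Of 10 non-coding genes of the mitochondrial genome, 3 rose in wild type and the others did not pass. Over all genes 4.36% rose and 7.45% fell in this comparison. The ribosomal RNA genes mt-Rnr2 and mt-Rnr1 rose by 0.80 (SE 0.22, adjusted p = 0.034) and 0.84 (SE 0.26, adjusted p = 0.049), and the transfer RNA mt-Tl1 by 0.72 (adjusted p = 0.046). The poly(A) selection of the libraries limits what these values measure. Of 78 cytosolic ribosomal protein genes, whose messages are also short and abundant, 12 rose and 0 fell in wild type, with a median of 0.23.

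Markers of several cell types moved with these changes, and in whole lung more RNA per cell and more cells of a type cannot be told apart. For the counts of markers below, 4.36% of all genes rose and 7.45% fell with OVA in wild type. The muscle forms left out above fell in that comparison. *Cox6a2*, of heart and skeletal muscle, had 10.8, 16.7 and 20.2 normalized counts in saline WT and 3.34, 4.33, 4.65 and 5.79 in OVA WT, a change of -1.68 (SE 0.20, adjusted p = 0.00039). In saline KO it had 7.28, 9.59 and 8.93, and in OVA KO 5.25, 5.82, 7.16 and 6.65. *Cox8b* was at -1.56 (adjusted p = 0.013) and *Cox7a1* at -1.47 (adjusted p = 0.032). Of 12 heart muscle markers 11 fell in wild type. Their summed level lay between 857 and 1417 in the saline WT libraries, between 62.4 and 185 in OVA WT, between 371 and 720 in saline KO and between 154 and 539 in OVA KO. Of 5 markers of club cells, the secretory cells of the airway, 5 fell, with sums between 27055 and 33408 in saline WT and between 5846 and 9594 in OVA WT. In the KO libraries these sums were between 26294 and 38325 after saline and between 9373 and 21279 after OVA. Of 8 ciliated cell markers 3 fell, with sums between 389 and 421 before and between 109 and 370 after OVA in wild type. Other markers rose in the same comparison. Of 8 monocyte and macrophage markers 6 rose, among them *Cd68* (1.07, adjusted p = 0.003) and *C1qb* (0.98, adjusted p = 0.002), although the summed level of the 8 was between 3758 and 4312 in saline WT and between 2547 and 3941 in OVA WT. Of 7 alveolar macrophage markers 2 rose, *Mrc1* (1.15, adjusted p = 0.00091) and *Ear2* (0.99, adjusted p = 0.0037). The mean log2 level of the 7 overlapped, at 4.44 to 4.65 in saline WT and 4.22 to 4.69 in OVA WT. Their summed level was between 198 and 237 in saline WT and between 256 and 298 in OVA WT. Of 4 plasma cell markers 3 rose, with *Jchain* at 9.11 ± 3.84 normalized counts in saline WT (SD, n = 3) and 178 ± 131 in OVA WT (SD, n = 4). No marker of these 6 lists was below 1 in every library. Marker lists thus moved in both directions in the comparison in which the mt-encoded genes rose. Among other lists, fat marker sums were 74.1 to 177 in saline WT and 5.49 to 29.6 in OVA WT. In knockout the fat sums were 44.1 to 89 after saline and 7.37 to 198 after OVA. T cell marker sums were 24.3 to 30.6 in saline WT and 34 to 178 in OVA WT. The mean log2 level of type 2 alveolar markers overlapped, at 9.78 to 10.03 in saline WT and 9.38 to 10.05 in OVA WT. With the heart muscle score as a covariate, 0 mt-encoded and 0 nuclear-encoded genes passed in wild type, with a median mt-encoded change of 0.73, and 6 genes passed in the whole table. The part of cell makeup in the mt-encoded change was not tested further.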

How the data were processed

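RNA was sequenced from 14 mouse lungs in 4 groups. The authors' libraries were made from polyadenylated RNA, and the submitters' processing notes name STAR, Partek and the build mm10. The deposited values are a signal per gene, normalized counts made by the authors in Partek, with column totals of 907121 to 1148437, not whole reads. The start of all 25 mitochondrial genes in the table equals GRCm38, and only 2.19% of all matched genes do, so nuclear coordinates of the table were not used.

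Values were analysed as log2(value + 0.502), where the added constant is 0.5 ppm of the average column sum, so changes of low genes are understated. Genes at 0.2 ppm or more in at least 3 libraries were kept (22828 of 24270). All 14 libraries and 4 groups were fitted with limma 3.58.1 (trend and robust) in R 4.3.3, with Benjamini-Hochberg adjustment over all genes within each comparison and a threshold of 0.05. Adjusted p-values in the text are from this fit unless stated, and the relative fit used the same settings after scaling on the nuclear-encoded genes. Single ratios were compared with exact 2-sided permutation tests. Simulated data were used to test the fit.

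The genes, gene lists and tests were chosen with earlier results of these data known. Named were all 13 mt-encoded genes, nuclear-encoded genes past the threshold, paired forms, the muscle forms, and up to 4 genes of each list with the smallest p. *Tfam*, *Nnt* as a separator of genotypes and the genes with groups that did not overlap were singled out after their values were seen. Alternatives covered scaling, pseudocount, filter, variance prior, library weights, samples fitted, replicate block, left-out libraries and a heart muscle covariate.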

Additional observations from a re-analysis of the deposited data

Results flagged for a closer look

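In 94 sets of 4 libraries, 4 had a library far from the other 3, where chance gives about 1 in 20. *Cox8b* (ENSMUSG00000025488) was at 2.57 on the log2 scale in OVA KO 3 and at 0.845, 0.862 and 1.1 in the other OVA KO libraries. As a percent of *Cox8a* it was 9.31% in the same library and 2.43%, 2.98% and 3.02% in the others. *Cox7a1* was 0.79% of *Cox7a2* in OVA WT 1 and 2.36%, 2.58% and 2.6% in the other OVA WT libraries. The log2 level of mt-Nd4 relative to the other mt-encoded genes was 1.54 in OVA WT 4 and 1.48, 1.49 and 1.49 in the others.

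*Atp5g2* as a percent of *Atp5g1* was flagged because its OVA and saline groups lay apart in opposite directions in wild type and knockout. The response in knockout minus that in wild type was -6.18 percentage points.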

How the results depend on the processing

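Of 512 counts and scores recomputed under alternatives, 474 stayed close in size. For counts this looked only at the number of calls, not at their direction, and a count of 0 that stayed 0 was taken as kept. Signs of genes were followed only for the 13 mt-encoded genes, *Ndufaf7*, *Ndufv1*, *Atp5d* and *Atp5g2*, and none changed. Scores were recomputed under part of the alternatives only, and none changed sign there. The nuclear-encoded calls in wild type after OVA, 0 higher and 3 lower, turned to mostly higher with library weights and with the replicate block. With the heart muscle score as a covariate, the calls in wild type after OVA were 0 for the mt-encoded genes, 0 for the nuclear-encoded genes and 0 for the mt-encoded genes relative to the nuclear-encoded ones. That score did not overlap between the wild-type groups and few genes of the whole table passed with it, so this fit cannot separate OVA from heart muscle level. The 3 nuclear-encoded calls became 31 with equal column totals, 10 with equal totals without mt-encoded genes, 18 with library weights (11 higher, 7 lower) and 6 without OVA WT 2 and OVA KO 3. For the mt-encoded genes in knockout against wild type after OVA, equal column totals gave 1 call and library weights 1. On the relative scale the 1 call, mt-Nd3, became 0 with a pseudocount of 0.1 ppm, without trend and robust fitting, with the heart covariate and with only the groups compared, and 13 with library weights. The interaction on that scale gave 1 with library weights. The cause of these differences was not tested.

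Leaving out each library in turn gave 0 to 13 mt-encoded calls in wild type after OVA (7 to 13 on the relative scale) and 1 to 5 nuclear-encoded calls, with 1 without saline WT 1 or saline WT 2 and 5 without OVA KO 3. In knockout against wild type after OVA it gave 0 to 1 mt-encoded calls, 0 to 1 on the relative scale and 0 to 2 nuclear-encoded calls, with 2 without OVA KO 1.

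Replicate numbers did not pair the samples: of 19 pairs of libraries with the same number, 5 had deviations correlated above 0.1 (r from -0.319 to 0.387). With the replicate number as a block, the nuclear-encoded calls in wild type after OVA were 5 (3 higher, 2 lower) and the mt-encoded calls in knockout against wild type after OVA were 1.

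With 3 or 4 libraries a group, exact tests could not go below 0.057 for 3 against 4, and low genes such as *Atp5g2* rest on few reads.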
